A study of Mus musculus with 34 samples.

Results

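Complexes III, IV and V are the last enzymes of oxidative phosphorylation, and most of their protein subunits are encoded in the nucleus. Every gene with a symbol starting with Uqcr or Atp5, the gene Cyc1, and every gene of the Cox4 to Cox8 series with a letter a, b, c or i after the number was taken from the deposited tables, without pseudogenes. This gave 42 genes of the 15691 listed in at least 1 of the 2 normalised tables, with 9 of complex III, 16 of complex IV and 17 of complex V. All 42 were measured in adipose tissue. In heart 41 were measured, Atp5g2 was not analysed, and 5 further matches were left out as pseudogenes (Atp5pb-ps, Cox5b-ps, Cox6c2, Uqcrh-ps1 and Uqcrh-ps2). Of these, Cox5b-ps carries a protein-coding label in the annotation and was left out for its symbol. Every measured member passed the filter on low counts.

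As background, complex III (the cytochrome bc1 complex) moves electrons from ubiquinol to cytochrome c. Complex IV (cytochrome c oxidase) passes them on to oxygen. Both pump protons across the inner mitochondrial membrane, and complex V (ATP synthase) uses the returning protons to make ATP. The nuclear subunits are built around a mitochondrially encoded core, which holds cytochrome b in complex III, the catalytic subunits in complex IV and part of the proton channel in complex V. Several complex IV subunits exist in a form typical of heart and skeletal muscle and a form found in most other tissues. White adipose tissue holds few mitochondria compared with heart muscle.

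RNA was sequenced from adipose tissue and heart of C57BL/6J mice that were 20 to 22 months old at sampling. The control mice ate a diet with 10% of its calories from fat, and mice on the high-fat, high-calorie diet (HFCD) ate one with 60%. The HFCD+FMD mice ate the HFCD and received a fasting mimicking diet (FMD) for 5 days every 4 weeks, and from cycle 6 onwards each FMD period was followed by 2 days of the control diet. Tissues of all 3 diets were taken 4 days after the last of 11 cycles. In adipose tissue there were 3 control libraries (numbers 1, 3 and 5), 4 HFCD libraries (1 to 4) and 6 HFCD+FMD libraries (1 to 6), and in heart 5 control (2 to 6), 5 HFCD (1 to 5) and 4 HFCD+FMD libraries (1, 2, 3 and 5). The labels do not name the fat depot, and they do not tie a heart library to an adipose library of the same mouse.

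Total counts per library ran from 15604982 to 40831656 in adipose tissue and from 16848195 to 47859170 in heart. All 7 adipocyte markers checked were present in the adipose libraries, with summed levels of 18777 to 50789 CPM (read counts divided by the scaled total of their library), and all 7 cardiomyocyte markers were present in the heart libraries at 26338 to 54233 CPM. Some libraries stood apart. Adipose control 1 had the most counts from mitochondrially encoded genes in that tissue (29.3%, against 17% and 12.6% in the other control libraries) and was highest for the brown fat genes Ucp1 and Cidea, at 130 and 60.3 CPM. In heart control 2 the members stood, by median, 1.07 above the median of the heart libraries on the log2 scale, and short transcripts were high in general (Spearman rho with transcript length -0.60 across 13212 genes, a description). In 4 heart libraries (HFCD 3 and 5, HFCD+FMD 3 and 5) more than 50% of all counts came from mitochondrially encoded genes. The heart libraries also fell into 3 processing sets, which follow the diets in part and whose meaning the labels do not give. The edgeR tests within heart kept a term for the set, whereas CPM values, sums, shares and counts of diets without overlap have none.

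In adipose tissue the HFCD went with lower transcripts of all 3 complexes. Of the 42 members, 22 fell against the control diet and 0 rose at a false discovery rate of 0.05 (edgeR quasi-likelihood test, adjusted over all 15112 genes tested). Over all genes, 14.2% fell and 15.7% rose in this comparison. The members that fell were 6 of 9 in complex III, 7 of 16 in complex IV and 9 of 17 in complex V. The median log2 fold change of the 42 members was -0.71, beside 0.00 for all genes, and 39 of the 42 members had a negative value. In 27 members every HFCD library was below every control library, which held for 18.9% of all genes. The 1 member (2.38%, beside 20.6% of all genes) whose HFCD libraries all lay above the control libraries was Cox4i2, the hypoxia-linked form of subunit 4 (log2 fold change 0.40, adjusted p = 0.327 in edgeR). Adipose control 1 carried part of the count, since 11 members fell when it was left out, beside 6.83% of all genes. The mitochondrially encoded share of counts was also higher in every control library (12.6% to 29.3%) than in any HFCD library (2.17% to 6.08%), and with those genes removed before scaling 24 members fell. The share of all genes that fell in that refit is not given here. Deviations of all genes from their median over the libraries also followed transcript length in different directions, with Spearman rho of -0.20, -0.07 and -0.09 in controls 1, 3 and 5 and 0.09, 0.05, 0.09 and 0.06 in HFCD 1 to 4, a description. The part of this trend in the member values was not tested.

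**Figure D1:**
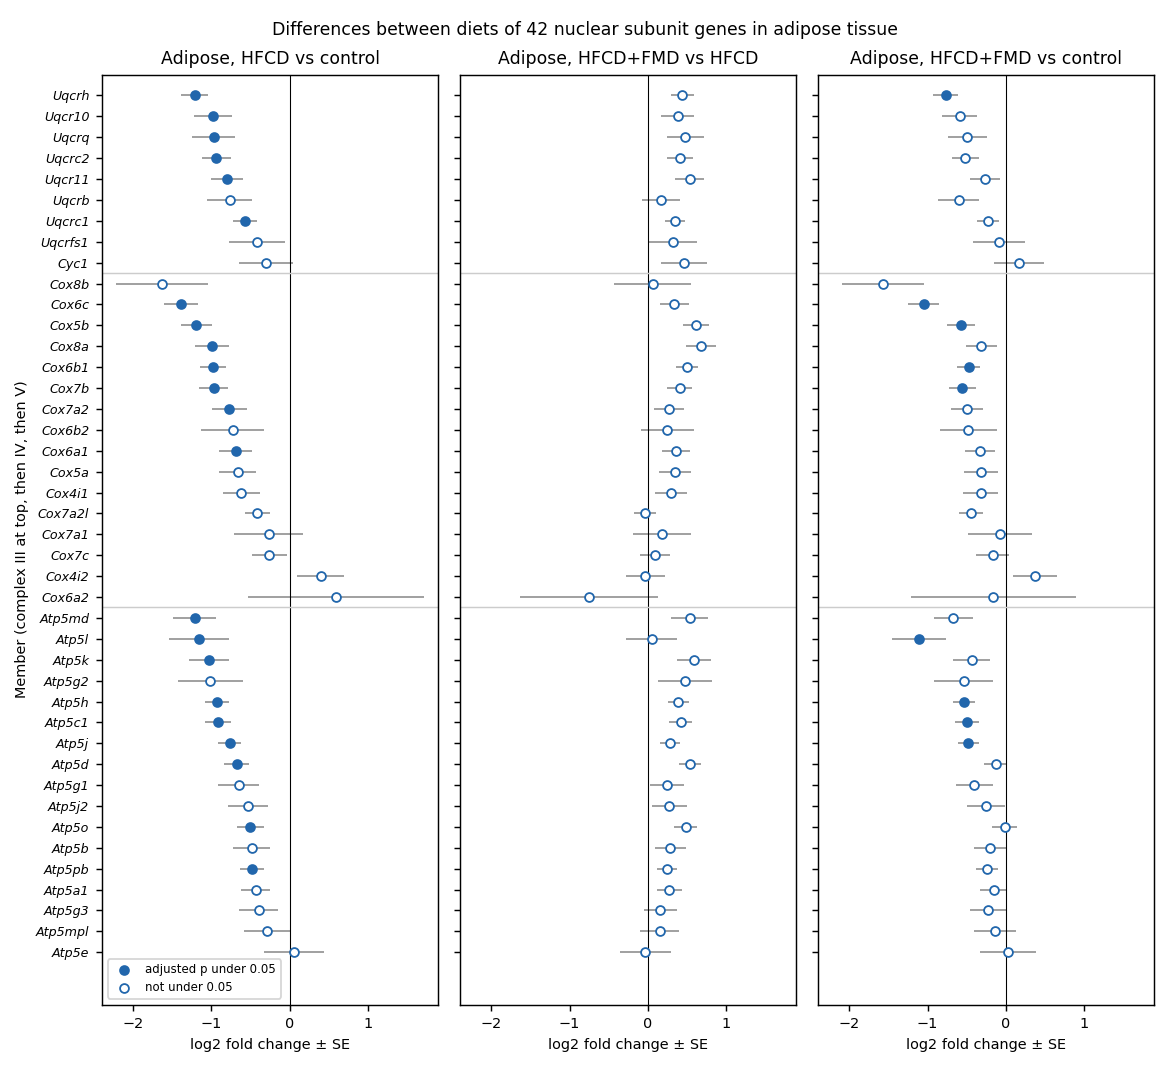
Log2 fold change of each member in adipose tissue for the 3 pairs of diets, with bars of 1 SE from the edgeR model and members grouped by complex, where filled points had an adjusted p under 0.05. Values run from -1.63 to 0.59 for HFCD against control, and 39 of 42 points lie below 0.

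Summed over its members, complex III stood at 1049 ± 316 CPM (SD, n = 3) in control adipose tissue, 601 ± 119 (n = 4) on the HFCD and 801 ± 150 (n = 6) on HFCD+FMD. Complex IV stood at 1925 ± 578, 1065 ± 76.7 and 1408 ± 189 CPM in the same order. Complex V stood at 3686 ± 686, 2561 ± 524 and 3160 ± 544 CPM. For each complex the mean was lowest on the HFCD and the HFCD+FMD mean lay between the other diets. In bulk tissue, fewer cells of a type and less RNA per cell cannot be told apart.

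**Figure D2:**
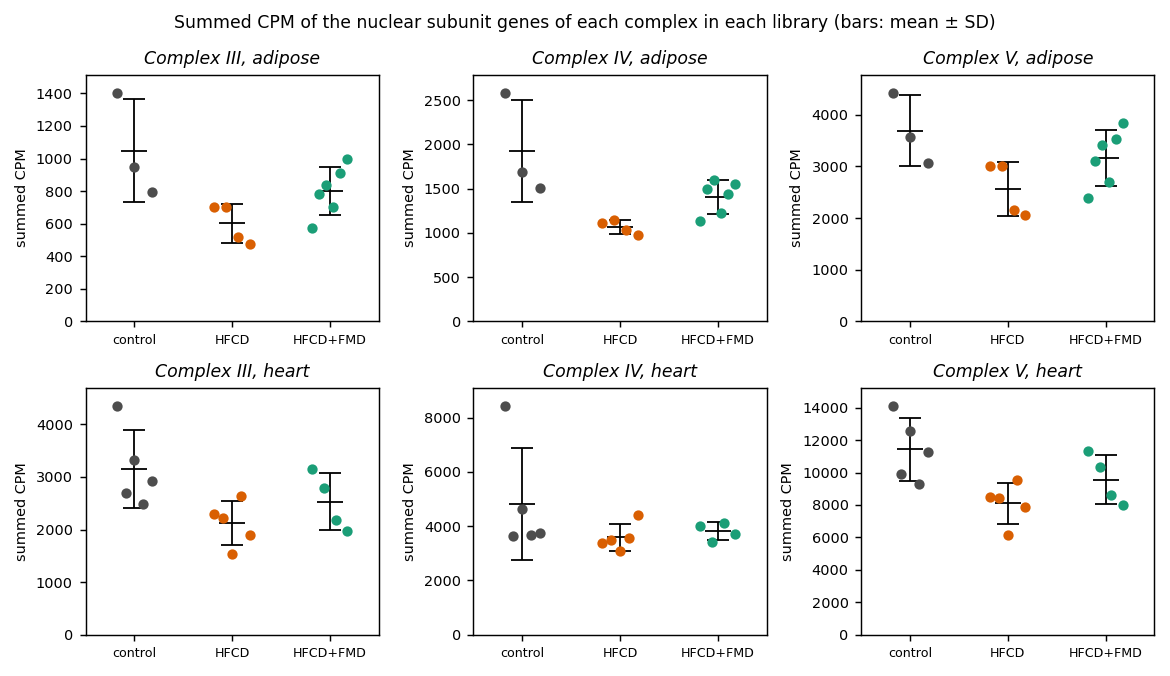
Summed CPM of the measured members of each complex in every library, by diet and tissue, with the mean and SD of each diet. Heart control 2 is the highest point of complex IV at 8422 CPM, and in adipose tissue the HFCD means are the lowest of the 3 diets for each complex.

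In complex III the members called lower were structural subunits, and a difference between these and the redox carriers was not tested. Both core proteins fell, Uqcrc2 by 0.94 ± 0.19 (SE) and Uqcrc1 by 0.57 ± 0.15 on the log2 scale (adjusted p = 0.0046 and 0.0143, edgeR), and so did 4 of the 5 small subunits. Uqcrh, the acidic hinge protein that lies beside cytochrome c1, had 216, 141 and 124 CPM in control libraries 1, 3 and 5 and 78.1, 71.6, 67.3 and 59.8 CPM in HFCD libraries 1 to 4. All 4 HFCD libraries lay well below the lowest control library, and the mean was 0.431 of the control mean. Its log2 fold change was -1.21 ± 0.17 (adjusted p = 0.00099), the smallest adjusted p of any member. Uqcr10, Uqcr11 and Uqcrq, which are short proteins at the rim of the complex, fell by 0.98, 0.80 and 0.97. The redox carriers did not pass the test. Cyc1, the haem-bearing cytochrome c1, had 116, 88.4 and 72.7 CPM in the control libraries and 94.0, 104, 55.9 and 44.8 CPM on the HFCD, so the diets overlapped. Uqcrfs1, the Rieske iron-sulfur protein, had 150, 91.8 and 81.4 CPM against 110, 109, 54.4 and 48.5 CPM. Their log2 fold changes were -0.31 and -0.42 (adjusted p = 0.521 and 0.400). The remaining small subunit, Uqcrb, was at -0.77 with an adjusted p of 0.058.

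In complex IV the subunits found in most tissues accounted for all 7 calls. Cox6c, a small transmembrane subunit, had 247, 156 and 132 CPM in the control libraries and 68.8, 67.4, 60.3 and 75.0 CPM in the HFCD libraries. Its log2 fold change was -1.39 ± 0.22 (adjusted p = 0.00152), the largest fall among the members that passed. Cox5b, the zinc-binding subunit on the matrix side, had 89.0, 76.6 and 65.7 CPM against 26.5, 27.3, 40.2 and 40.6 CPM. Cox6b1, which faces the intermembrane space, had 447, 303 and 280 CPM against 180, 176, 176 and 163 CPM. In each of these 3 genes the HFCD libraries lay below all control libraries, by -1.19 ± 0.20 for Cox5b and -0.98 ± 0.16 for Cox6b1 (adjusted p = 0.00187 for both). Cox7b, Cox8a, Cox7a2 and Cox6a1 fell by 0.97, 1.0, 0.77 and 0.69. Cox4i1 and Cox5a, the main form of subunit 4 and subunit 5a, stood at -0.62 and -0.67 and missed the threshold (adjusted p = 0.064 and 0.0505).

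The muscle-type forms of complex IV behaved less evenly between adipose libraries. Cox8b, the form of subunit 8 found in muscle and brown fat, had 50.4 CPM in control 1 but 10.2 and 4.40 CPM in controls 3 and 5, and 6.18, 8.42, 6.63 and 6.36 CPM in the HFCD libraries. Its log2 fold change of -1.63 had an adjusted p of 0.0504 and rested on the single high control library, the one with the high Ucp1 level. Cox6a2 had 2.52 CPM in control 1 and 0.0889 and 0.280 CPM in controls 3 and 5. It reached 1.69, 1.39, 0.60 and 1.5 CPM on the HFCD, with a log2 fold change of 0.59 (adjusted p = 0.720). The heart muscle gene Myh6 was detected at 26.9 CPM in adipose control 1, 36.3 CPM in HFCD 1, 12.8 CPM in HFCD 2 and 43.9 CPM in HFCD+FMD 6. In HFCD 4 and HFCD+FMD 4, however, Myh6 was at 1.5 and 0.237 CPM, while Cox6a2 was at 1.5 and 1.57 CPM. The part of such muscle RNA in the Cox6a2 values was not tested. Cox7a1 and Cox4i2 were at -0.27 and 0.40, and Cox6b2, the testis-type form, was at -0.73 with 2.90, 2.13 and 2.44 CPM in the control libraries.

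In complex V all 4 subunits of the peripheral stalk, which holds the catalytic head still, fell on the HFCD. Atp5h (subunit d) had 78.6, 56.9 and 50.5 CPM in the control libraries and 34.3, 33.8, 26.9 and 35.2 CPM on the HFCD, and its log2 fold change was -0.93 ± 0.16 (adjusted p = 0.00209). Atp5j (subunit F6), Atp5pb (subunit b) and Atp5o (the stalk protein that confers oligomycin sensitivity) fell by 0.77, 0.48 and 0.50. Of the 5 head and central stalk genes 2 fell. Atp5c1, the rotating gamma subunit, had 394, 348 and 295 CPM against 197, 188, 176 and 169 CPM, a log2 fold change of -0.92 ± 0.17 (adjusted p = 0.00273), and Atp5d (delta) fell by 0.68. The alpha and beta subunits that form the catalytic ring, Atp5a1 and Atp5b, were at -0.43 and -0.49 (adjusted p = 0.099 and 0.132). Atp5e (epsilon) was at 0.06 (adjusted p = 0.919), with 55.9, 41.2 and 40.8 CPM in the control libraries and 69.1, 64.9, 32.1 and 24.7 CPM on the HFCD. Of the membrane part, Atp5k, Atp5l and Atp5md fell by 1.03, 1.16 and 1.21, but Atp5l and Atp5md stood below 5 CPM. None of the 3 genes for the c ring, Atp5g1, Atp5g2 and Atp5g3, passed (log2 fold changes -0.65, -1.02 and -0.40).

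**Figure D3:**
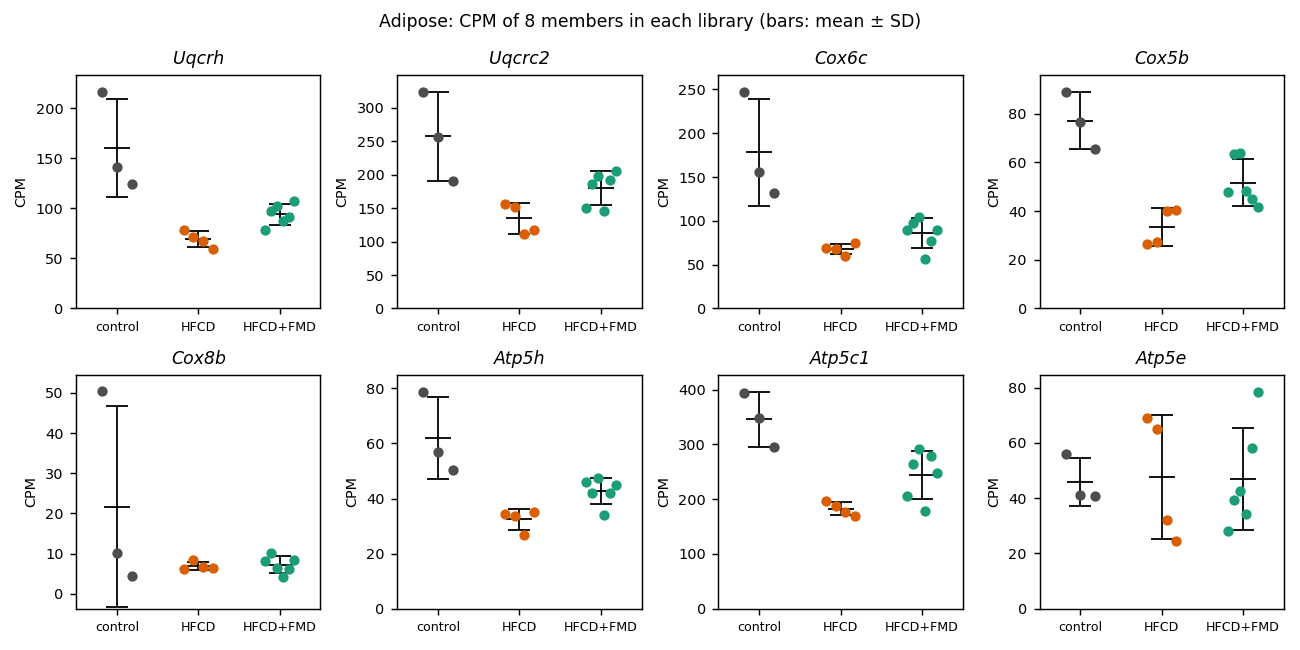
CPM of 8 members in every adipose library by diet, with the mean and SD: Uqcrh, Uqcrc2, Cox6c, Cox5b, Cox8b, Atp5h, Atp5c1 and Atp5e. The HFCD libraries lie below every control library in Uqcrh, Uqcrc2, Cox6c, Cox5b, Atp5h and Atp5c1, while in Atp5e they overlap and in Cox8b control 1 stands alone at 50.4 CPM.

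The HFCD libraries differed among themselves in many members. In 25 of 42 members (59.5%) HFCD 3 and 4 both lay below HFCD 1 and 2, and in 8 members (19%) both lay above. Over all genes these shares were 27.7% and 31.3%. The pairing of libraries was not planned, so the shares are a description and no test. Cyc1, Uqcrfs1, Atp5b and Atp5e were among the members that were lower in HFCD 3 and 4. Those libraries had 5.46% and 6.08% of counts from mitochondrially encoded genes, against 2.29% and 2.17% in HFCD 1 and 2. Cox5b ran the other way and was higher in HFCD 3 and 4. The part of this split in the diet results was not tested.

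Sequence upstream of the genes is shown as a description, and members that fell in adipose tissue were not compared with the others. Start-site windows of 300 bases, 250 before and 50 after the start, were available from RefSeq (GRCm38.p6) for 32 of the 42 members. NRF1 and GABPA are transcription factors known to act on respiratory genes. The NRF1 core GCATGCGC, read on both strands, stood in 6 of the 32 members (18.8%), in 3.05% of 27025 genes with a window and in 5.43% of the 11758 of these listed in the tables. The GABPA motif CCGGAAGT stood in 4 members (12.5%), beside 4.31% and 8.16%. The YY1 motif AAGATGGC stood in 3 members (9.38%, beside 3.19% and 4.70%) and the ESRRA motif TCAAGGTCA in 1, Atp5g3 (3.13%, beside 0.466% and 0.323%). The SP1 box GGGCGG stood in 11 members (34.4%), beside 38.2% and 65.4%. At least 1 of the first 4 motifs stood in 13 members (40.6%, beside 10.4% and 17.3%), namely 3 of 5 in complex III, 2 of 12 in complex IV and 8 of 15 in complex V. A match of letters is a description and not evidence of binding. The GCATGCGC core is nearly its own reverse complement, so 1 stretch can match on both strands.

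Stretches of 100 bases are given for 6 members that fell in adipose tissue and held an NRF1 core or a GABPA motif, each 5′ to 3′ on the minus strand, on which all 6 genes lie, with the matching letters of either strand in capitals. They span chr10:80406812-80406911 for Uqcr11, chr4:116075071-116075170 for Uqcrh, chr5:115349059-115349158 for Cox6a1, chr19:7217607-7217706 for Cox8a, chr11:115419920-115420019 for Atp5h and chr5:108434400-108434499 for Atp5k.
Uqcr11: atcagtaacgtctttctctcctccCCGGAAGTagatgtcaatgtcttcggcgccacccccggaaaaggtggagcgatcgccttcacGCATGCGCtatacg
Uqcrh: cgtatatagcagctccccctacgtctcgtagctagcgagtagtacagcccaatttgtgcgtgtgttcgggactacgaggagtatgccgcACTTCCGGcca
Cox6a1: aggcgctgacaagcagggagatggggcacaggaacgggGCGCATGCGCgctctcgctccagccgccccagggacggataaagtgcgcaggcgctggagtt
Cox8a: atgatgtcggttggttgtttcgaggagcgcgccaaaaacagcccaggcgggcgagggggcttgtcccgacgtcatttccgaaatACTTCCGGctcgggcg
Atp5h: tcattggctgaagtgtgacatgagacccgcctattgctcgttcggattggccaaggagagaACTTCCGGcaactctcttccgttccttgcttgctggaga
Atp5k: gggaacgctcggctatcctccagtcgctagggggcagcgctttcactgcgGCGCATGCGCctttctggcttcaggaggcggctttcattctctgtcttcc
Uqcr11 holds both motifs in the printed stretch, at -66 and -4 from its start site. Uqcrh holds a GABPA motif at -11, Cox8a at -6 and Atp5h at -39, each read on the strand opposite to the gene, so that the printed letters are its reverse complement. In Cox6a1 and Atp5k the NRF1 core reads on both strands, at -162 and -50. Uqcrc1 and Atp5l also fell and held an NRF1 core, but their stretches are not printed. The members without a window were Cyc1, Uqcrb, Uqcrc2, Uqcrq, Cox4i1, Cox4i2, Cox6a2, Cox6c, Atp5a1 and Atp5mpl.

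Other genes that serve these complexes were described from lists of the pathway. Of 32 assembly factors tested in adipose tissue, 12 fell and 0 rose on the HFCD, where 14.2% of all genes fell. Lyrm7 and Bcs1l, which hold and insert the Rieske protein Uqcrfs1 into complex III, had log2 fold changes of -1.87 ± 0.24 and -1.08 ± 0.15 (adjusted p = 0.000564 and 0.000696, edgeR), although Uqcrfs1 itself did not pass. Pet100 and Coa5, which help build complex IV, fell by 0.73 and 0.65. Cytochrome c (Cycs), the carrier between complexes III and IV, fell by 1.22, and Ndufa4, now assigned to complex IV, fell by 0.79. These were 2 of 5 such genes. In complex II 5 of 8 genes fell, among them Sdhb by 0.80, Sdha by 0.74, Sdhaf1 by 0.66 and Sdhaf2 by 0.43. Of 7 inner and outer membrane carriers 2 fell, Vdac1 by 0.65 and Slc25a4 by 0.56. Without adipose control 1, where 6.83% of all genes fell, the counts were 7 assembly factors, 1 carrier protein of the Cycs list and 1 complex II gene.

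The regulators did not move as a block, with 4 of 15 lower and 1 higher on the HFCD, beside 14.2% of all genes lower and 15.7% higher. Ppargc1a, the coactivator of mitochondrial genes, was called lower at a log2 change of -1.44 ± 0.47 (adjusted p = 0.036), with 10.4 ± 10.0 CPM in control and 3.78 ± 0.97 CPM on the HFCD. Without control 1 it was -0.30 (adjusted p = 0.504), so the fall rested on that library. Ppara fell by 1.15, Tfb2m by 0.69 and Tfb1m by 0.60, and the nuclear receptor Esrrg rose by 1.91 from 0.98 ± 0.78 to 3.61 ± 0.81 CPM. Of these 5 genes, Tfb1m alone still passed without control 1.

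The mitochondrially encoded partners fell further than the nuclear members. Of 6 listed, mt-Cytb of complex III and mt-Co1 of complex IV were tested and the other 4 were not analysed here. mt-Cytb had a log2 fold change of -3.11 ± 0.59 and mt-Co1 of -2.61 ± 0.48 (adjusted p = 0.00333 and 0.00297). No nuclear member reached -2 on that scale. The difference between nuclear and mitochondrial genes was not tested.

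Cell type markers moved with the diets in adipose tissue. The summed adipocyte markers (7 of 7 present) ran from 30184 to 50789 CPM in control, 22572 to 26578 CPM on the HFCD and 18777 to 25070 CPM on HFCD+FMD. The summed macrophage markers (8 of 8 present) ran from 172 to 963, from 1392 to 3070 and from 734 to 2105 CPM. Brown or beige adipocyte markers (6 of 7 present) ran from 43.4 to 321, from 80.3 to 91.5 and from 74.2 to 107 CPM. Mesothelial markers (6 of 6 present) ran from 173 to 396, from 21.4 to 110 and from 28.3 to 191 CPM. Endothelial markers (3 of 3 present) ran from 655 to 803, from 1003 to 1156 and from 909 to 1993 CPM. Adipocyte and mesothelial sums were thus lower, and macrophage and endothelial sums higher, in every HFCD library than in every control library. Single genes did not all follow their sum. Kdr (110 to 192 CPM in control, 137 to 285 CPM on the HFCD), Mrc1, C1qa and Msln overlapped. The adipocyte markers did not move as 1 block: Fabp4 ran from 15645 to 28935 CPM in control and 9730 to 12630 CPM on the HFCD, Adipoq and Cidec overlapped between these diets, and Lep ran the other way, from 351 to 871 and from 3368 to 5587 CPM. The part of these cells in the lower member levels was not tested.

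Adding FMD cycles went with higher member levels than the HFCD alone, but no single member passed. In HFCD+FMD against HFCD, 0 of 42 members were called by edgeR, beside 0.205% of all genes in either direction. The median log2 fold change was 0.33, 38 of 42 were positive, and 15 members (35.7%) had an unadjusted p under 0.05, against 11.2% of all genes. The smallest adjusted p was 0.172, for Atp5d. DESeq2 called 4 members higher (Cox5b, Cox6b1, Cox8a and Atp5d), limma voom called 0, and voom with quality weights called 5 (these 4 and Atp5c1). The 0.205% belongs to edgeR, and no share of all genes is given for the other methods. In 4 members (9.52%) all HFCD+FMD libraries lay above all HFCD libraries, namely Uqcrh, Cox5b, Cox6b1 and Cox7b, and this held for 1.39% of all genes. Cox5b ranged from 41.6 to 63.8 CPM with a median of 48.1 CPM on HFCD+FMD, just above the highest HFCD library at 40.6 CPM. Uqcrh ranged from 78.7 to 107 CPM with a median of 94.6 CPM, just above the highest HFCD value of 78.1 CPM.

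Against the control diet, fewer members were lower on HFCD+FMD. Here 9 of 42 fell and 0 rose, beside 9.25% of all genes that fell and 10.5% that rose. They were Uqcrh in complex III, Cox5b, Cox6b1, Cox6c and Cox7b in complex IV, and Atp5c1, Atp5h, Atp5j and Atp5l in complex V. Cox6c had the smallest adjusted p of these, with 57.0 to 105 CPM and a median of 89.5 CPM on HFCD+FMD and a log2 fold change of -1.05 (adjusted p = 0.00593). Uqcrh stood at -0.77 (adjusted p = 0.00847) and Atp5h at -0.53 (adjusted p = 0.0236). The median of the 42 members was -0.37. In 7 members every HFCD+FMD library lay below every control library, beside 10.5% of all genes. All 9 had also fallen on the HFCD, but both comparisons share the 3 control libraries. The count rested on those controls: 1 member passed without control 1 and 2 without control 3. It was 5 without HFCD 3 or any 1 of HFCD+FMD 4, 5 and 6. The 9.25% belongs to the full fit, and no share of all genes is given for these refits.

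In a joint fit of both tissues most members stood higher in heart. On the control diet 36 of 41 members were higher in heart and 2 were lower (edgeR, 12606 genes), beside 31.2% and 32.7% of all genes. The CPM printed for each tissue were scaled within that tissue and are not on the scale of this fit. Over 11523 genes at 1 CPM or more in both tissues, the median log2 difference was -0.01 in the joint fit but -0.90 as a ratio of the CPM means. On that second scale 33 of 40 members were higher in heart and 7 lower, and Atp5md and Cox7a2l, higher in the joint fit, were among the 7. Tissue and the separate processing of the tables cannot be told apart in this comparison. All 9 complex III members were higher, by 1.76 to 3.35 on the log2 scale, with Cyc1 the highest. In complex V 15 of 16 were higher, led by Atp5g1 at 3.49. The median over the 41 members was 2.29. Cox5a stood 3.39 higher in heart. The differences of Cox6b2, Atp5l and Cox7c were -0.09, 0.15 and 0.37 and did not pass.

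Complex IV held the largest tissue differences in both directions, and these were pairs of isoforms. Cox6a2 was 11.27 ± 1.1 (SE) higher in heart on the log2 scale, Cox7a1 7.47 ± 0.53 and Cox8b 4.48 ± 0.57. The Cox6a2 difference rested on few adipose reads and was 13.21 without adipose control 1. Their counterparts Cox6a1 and Cox8a were 1.66 ± 0.27 and 1.54 ± 0.29 lower in heart, the only members called lower there in the joint fit. Per length, Cox6a2 made up 95 ± 0.44% (SD, n = 5) of Cox6a transcripts in control heart and 0.25 ± 0.30% (n = 3) in control adipose tissue. Cox8b made up 88.1 ± 2.01% and 8.63 ± 7.45%, where control 1 alone had 17.1% in adipose tissue. Cox7a1 made up 70.9 ± 3.01% and 4.43 ± 1.67% of Cox7a1 and Cox7a2. Cox4i2 stayed a minor form at 0.56 ± 0.13% and 1.28 ± 0.30%, as did Cox6b2 at 0.29 ± 0.087% and 0.82 ± 0.13%. Atp5g3 made up 99.4 ± 0.098% of counted c subunit transcripts in heart (without Atp5g2) and 99.1 ± 0.26% in adipose tissue. Of the 50-base words of the transcripts, 56.2% in Atp5g1, 46.4% in Atp5g2 and 0% in Atp5g3 also occur in other genes. The length used for Atp5g1 was 2675 bases, and without length scaling the Atp5g3 shares were 97.9% and 98.2%. The part of shared words in this share was not tested.

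**Figure D4:**
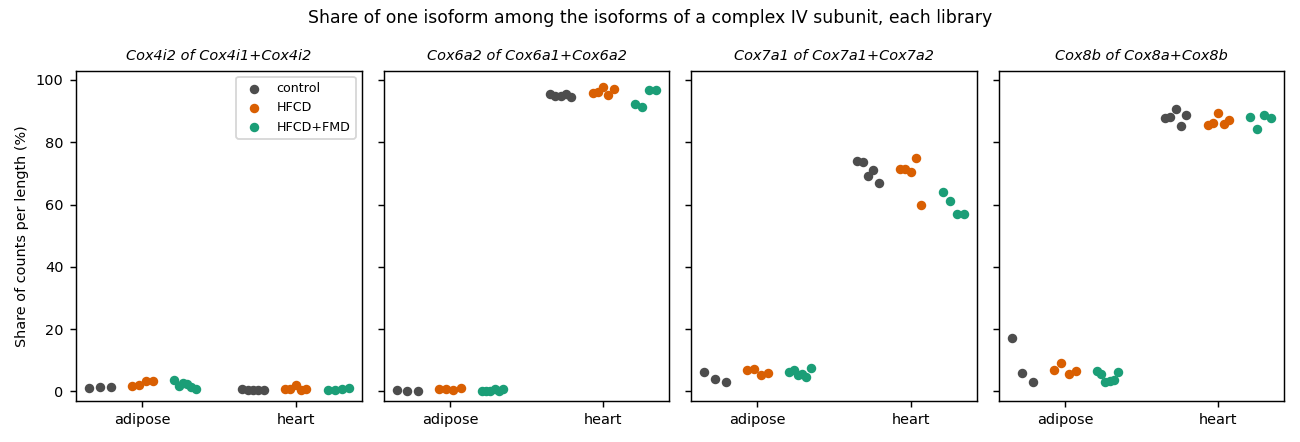
Share of Cox4i2, Cox6a2, Cox7a1 and Cox8b in their isoform pairs, from counts per transcript length, in every library by tissue and diet, in percent. Cox6a2 lies near 95% in control heart and under 1% in control adipose tissue, and Cox7a1 in heart is spread between 56.9% and 74.9%.

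Levels per transcript length, scaled within each tissue, were led by Uqcrh in complex III and Atp5b in complex V in both tissues, and by different genes in complex IV. In control adipose tissue the highest of each complex were Uqcrh at 338 ± 103.3 CPM per kilobase, Cox6b1 at 706 ± 186 and Atp5b at 732 ± 145. In control heart they were Uqcrh at 642 ± 244, Cox4i1 at 1454 ± 538 and Atp5b at 2058 ± 243. Behind Uqcrh came Uqcr10 (246 ± 107) and Uqcrq (242 ± 109) in adipose tissue, which lie within each other's SD. In heart Uqcrq (632 ± 343) and Uqcr10 (446 ± 175) followed. There Uqcr10 lay within the SD of Uqcrq, but Uqcrq lay just above the SD of Uqcr10. In complex IV Cox8a (512 ± 149) and Cox4i1 (501 ± 138) followed in adipose tissue, and Cox6a2 (1439 ± 869.8) and Cox6b1 (914 ± 314) in heart. In complex V Atp5a1 came next in both tissues, at 347 ± 57.2 and 1276 ± 155, and was below Atp5b by more than the SD of each. Atp5c1 was the next in adipose tissue (296 ± 42.8) and Atp5g3 in heart (1118 ± 337).

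In heart no member passed in any diet comparison in edgeR. For HFCD against control, edgeR called 0 of 41 members and 0.0% of all genes. The median log2 fold change was -0.53, 39 of 41 were negative, and 17 members (41.5%) had an unadjusted p under 0.05, against 12.8% of all genes. DESeq2 and limma voom also called 0. In 9 members every HFCD library lay below every control library, beside 3.98% of all genes. The smallest adjusted p was 0.367. Atp5e had the lowest log2 fold change, -1.05 ± 0.33, with 112 to 289 CPM (median 153) in control and 40.5 to 93.7 CPM (median 75.8) on the HFCD, so that the diets did not overlap. Cox5a had 350 to 665 CPM (median 416) against 174 to 330 CPM (median 279), also without overlap. The median moved to -0.17 without heart control 2, the library with the highest members, and to -0.18 in voom with quality weights. It was -0.64 within set A alone and -0.60 with the 4 libraries above 50% mitochondrially encoded counts left out, and both of these subsets kept heart control 2. The summed cardiomyocyte markers ran from 34501 to 54233 CPM in control, 26338 to 34675 CPM on the HFCD and 40431 to 47511 CPM on HFCD+FMD. Summed endothelial markers ran from 436 to 572, from 577 to 667 and from 589 to 670 CPM, so the sum of every HFCD library lay above that of every control library. Taken singly, Kdr, Cdh5 and Pecam1 each overlapped between these diets, with Kdr at 143 to 224 CPM in control and 130 to 224 CPM on the HFCD. Deviations of all genes from their median over the heart libraries followed transcript length with Spearman rho of -0.60, 0.07, -0.36, -0.08 and 0.13 in controls 2 to 6. The values were 0.18, 0.28, 0.23, 0.13 and -0.05 in HFCD 1 to 5, and -0.16, 0.02, 0.08 and 0.09 in HFCD+FMD 1, 2, 3 and 5, a description. The part of these cells and of this length trend in the member levels was not tested.

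For HFCD+FMD against HFCD in heart, edgeR called 0 of 41 members, beside 0.106% of all genes, with a median log2 fold change of 0.32 and 2 members with an unadjusted p under 0.05. For HFCD+FMD against control it called 0, beside 0.0227% of all genes, with a median of -0.24 and 0 members with an unadjusted p under 0.05. DESeq2 and voom called 0 members in both. The first median ran from 0.09 to 0.64 with 1 library left out and from 0.09 to 0.60 in the other alternatives, and the second from -0.55 to -0.03 and from -0.30 to 0.00. These comparisons rest on few libraries, since only HFCD 5 and HFCD+FMD 1 link the HFCD+FMD diet to the others across the sets. The sums over complexes in heart were 3151 ± 736, 2117 ± 417 and 2530 ± 544 CPM for complex III in control, HFCD and HFCD+FMD. They were 4823 ± 2055, 3587 ± 505 and 3814 ± 324 CPM for complex IV and 11441 ± 1949, 8097 ± 1254 and 9563 ± 1532 CPM for complex V. As in adipose tissue, each HFCD mean was the lowest of the 3, but only adipose tissue had members that passed. None of the genes of the assembly, carrier, complex II, regulator, membrane carrier or mitochondrially encoded lists passed in heart in any diet comparison.

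Heart libraries with many mitochondrially encoded counts differed in some members. The 4 libraries above 50% ran from 59.8% to 71.5% and the other 10 from 21.8% to 42.7%. In 8 of 41 members (19.5%) all 4 lay below all 10, beside 9.41% of all genes. Cyc1 had 110 to 194 CPM in the 4 libraries and 334 to 697 CPM in the 10, and Uqcrfs1 had 164 to 274 against 345 to 634 CPM. The other 6 were Uqcr11, Uqcrq, Cox4i1, Cox7a1, Atp5b and Atp5o. Cox7a2l, a supercomplex assembly factor related to subunit 7a, was the 1 member (2.44%, beside 7.69% of all genes) above in all 4, with 92.5 to 110 CPM against 41.8 to 86.5 CPM. HFCD and HFCD+FMD each held 2 of the 4 libraries and the control diet held none. HFCD 3 and HFCD 5 also had the highest levels of the atrial gene Nppa on this diet, at 314 and 1282 CPM. The part of these features in the member levels was not tested.

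**Figure D5:**
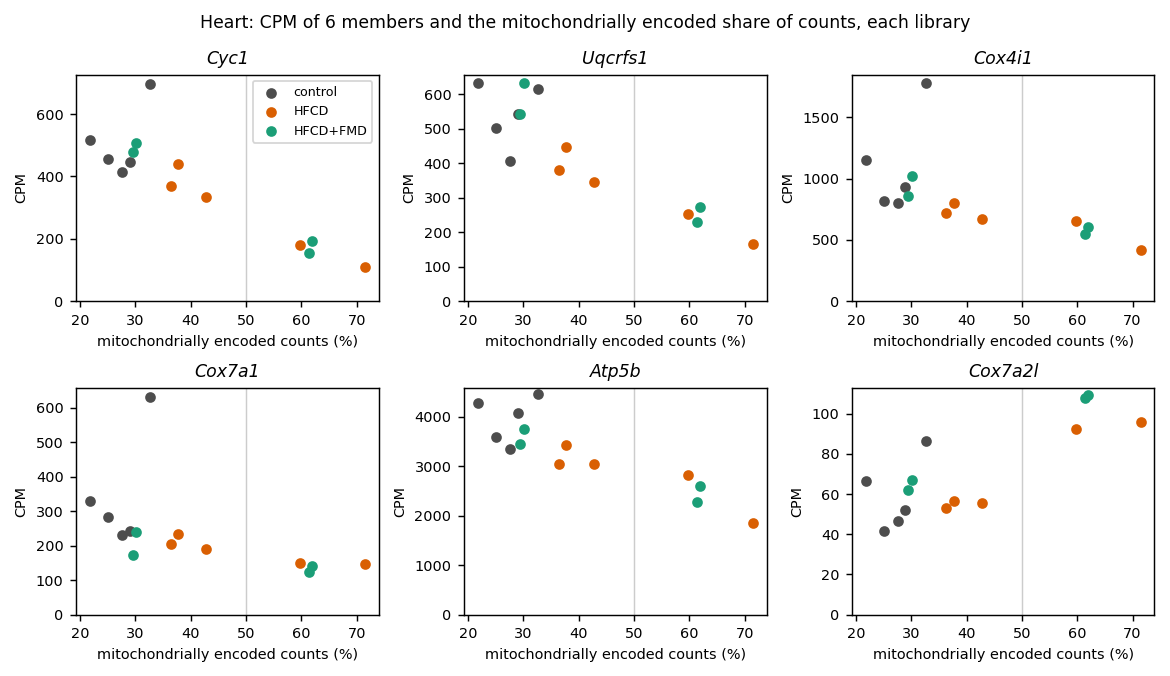
CPM of Cyc1, Uqcrfs1, Cox4i1, Cox7a1, Atp5b and Cox7a2l in the 14 heart libraries against the percentage of counts from mitochondrially encoded genes, with a grey line at 50%. The 4 libraries to its right lie below the other 10 in the first 5 genes and above them in Cox7a2l.

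The share of Cox7a1 among Cox7a transcripts in heart differed along both the diets and the library sets. All HFCD+FMD libraries (56.9% to 64.0%) lay below all control libraries (66.9% to 73.9%). It was 61.3%, 57.0% and 56.9% in HFCD+FMD 2, 3 and 5 and 59.9% in HFCD 5, which together form set C. It ranged from 66.9% to 74.9% in all libraries of sets A and B except HFCD+FMD 1, which had 64.0%. HFCD+FMD 1 was the only library of its diet outside set C. Diet and set therefore cannot be told apart for most of this difference.

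The diet response of few members differed between the tissues. In the joint fit the interaction of tissue and HFCD against control passed for 2 of 41 members, beside 22.0% of all genes. The log2 fold change of Uqcrc2 was 0.69 higher in heart than in adipose tissue (adjusted p = 0.021), and that of Atp5l was 1.56 higher (adjusted p = 0.034). The count was 0 without adipose control 1 and 12 without heart control 2. It was 1 without adipose control 3, adipose HFCD 1 or 2 or heart HFCD 3, and 5 without adipose control 5. The 22.0% belongs to the full fit, and no share of all genes is given for these refits. For HFCD+FMD against HFCD the interaction passed for 0 members in edgeR, beside 0.0159% of all genes, with 1 unadjusted p under 0.05. For HFCD+FMD against control it passed for 2, beside 17.1%, namely Uqcrc2 at 0.65 (adjusted p = 0.032) and Cox7a2l at 1.01 (adjusted p = 0.036). That count was 0 without adipose control 1 or 3, or without heart control 3 or 5 or heart HFCD+FMD 3 or 5, and 9 without heart control 2. It was 4 without adipose control 5 and 1 without adipose HFCD+FMD 5 or 6 or heart control 6. The 17.1% likewise belongs to the full fit alone. The joint fit had no term for the heart sets. With such a term, chosen after the data were seen, 1 member (Uqcrc2, 0.76, adjusted p = 0.025 in edgeR) passed for HFCD against control and 0 for HFCD+FMD against control, where Uqcrc2 was at 0.64 and Cox7a2l at 0.63 (adjusted p = 0.143 and 0.346). Within heart, with the set term, Cox7a2l stood at 0.18 ± 0.34 for HFCD+FMD against control, and in adipose tissue at -0.45 ± 0.15. Its highest heart levels were those of the 4 libraries above 50% mitochondrially encoded counts. A missed threshold does not show that the tissues respond alike.

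Many of these genes have processed pseudogene copies, which can take or add reads. In 8 members over 40% of the 50-base words of the transcript also occur in another gene: Uqcrb, Cox7c, Atp5g1, Atp5g2, Atp5h, Atp5l, Atp5md and Atp5o. Of these 8, 5 stood below 5 CPM in adipose tissue. Atp5l had the largest shared part, 84.8%, and its 4.45, 3.25 and 1.36 CPM in the control libraries and 1.17, 1.0, 1.60 and 1.58 CPM on the HFCD are uncertain. Atp5h (50.5% shared) and Atp5o (50.3%) are also uncertain, whereas Uqcrh shared no word with another gene. Atp5h shared words with 4 genes, all pseudogenes. Atp5o shared them with 3 annotated genes, of which 1 is a pseudogene, and a second entry named Atp5o is among the 3.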

How the data were processed

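RNA was measured as reads per gene. Per the labels' protocols, RNeasy columns gave total RNA, KAPA chemistry depleted the ribosomal part, and an Illumina HiSeq instrument read the libraries. Tools named in the submitters' processing notes are STAR 2.5.3, edgeR, limma and R 3.5.3, with build mm10. How reads were assigned to genes, and with which annotation, is not given in the sources used here. Raw whole-number counts were deposited by the authors for each tissue and were the input of the tests. The authors also deposited log2 values of library-scaled counts, used for gene symbols and as an alternative input. The deposited heart log2 values had lost 1 term per gene shared within each of 3 library sets, to within 9.77e-09. Set A held control 2, 3 and 5 and HFCD 1 to 4, set B held control 4 and 6 and HFCD+FMD 1, and set C held HFCD+FMD 2, 3 and 5 and HFCD 5. The labels list 34 libraries, of which 27 were used and 7 were not analysed here. No per-sample column of the tables was left out (0).

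Counts were tested in R 4.3.3 with edgeR 4.0.16: TMM scaling, filterByExpr on diet (15112 of 15145 genes kept in adipose tissue and 13230 of 13238 in heart), and a robust two-sided quasi-likelihood test with the 3 diets in 1 model and, in heart, the library set as a factor. P-values were adjusted over all genes by Benjamini-Hochberg at 0.05. Levels are CPM, from counts divided by the TMM-scaled library total within each tissue, as mean ± SD over libraries. CPM per kilobase uses the transcript lengths of GENCODE M21. Tissues and tissue-by-diet interactions were tested with edgeR on all 27 libraries jointly, with no term for the sets. That fit treated the libraries as independent, which would not hold if both tissues of a mouse were among them. Alternatives were DESeq2 1.42.0, limma 3.58.1 voom with and without quality weights, RLE scaling, other low-count filters, the deposited log2 values, age as a covariate, only the 2 diets compared, counts without mitochondrially encoded genes, no set factor, and each library left out in turn. Chosen after the data were seen were set A alone, only heart libraries under 50% mitochondrially encoded counts, and the heart sets as a term in the joint fit. The pairing of adipose HFCD 3 and 4 against HFCD 1 and 2 was not planned either. The test was also run on simulated counts with known changes, and its outcome there is not given here. Replicate numbers only name libraries, and p-values measure the spread between them. The members, the pathway and marker lists and the rule for named genes (smallest and largest p per complex, isoform families, most abundant members) were chosen with earlier results of these data known.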

Additional observations from a re-analysis of the deposited data

Results flagged for a closer look

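Single libraries stood far from the others of their diet in 27 of 222 groups of 4 to 10 libraries tested with Dixon's test at its 95% level, under which chance alone marks a share of 0.05 of groups. Heart control 2 accounted for 19 of the 27, in each case as the highest library. In complex III these were Uqcr10 (325 CPM), Uqcr11 (282 CPM), Uqcrc1 (516 CPM) and Uqcrq (624.8 CPM). In complex IV they were Cox4i2 (12.9 CPM), Cox5b (282 CPM), Cox6a1 (79.7 CPM), Cox6a2 (2026 CPM), Cox6b1 (709 CPM), Cox7a1 (633 CPM), Cox7b (671 CPM), Cox8a (98.5 CPM), Cox8b (467 CPM) and the sum of the complex (8422 CPM). In complex V they were Atp5d (721 CPM), Atp5h (289 CPM), Atp5j (372 CPM), Atp5k (278 CPM) and Atp5o (822 CPM). The other heart libraries so marked were HFCD 5 for Atp5md (3.13 CPM, the highest), HFCD 3 for Uqcr11 (41.7 CPM, the lowest) and HFCD+FMD 2 for Uqcrh (241 CPM, the lowest). In adipose tissue they were HFCD 2 for Cox7b (68.1 CPM, the highest), HFCD 4 for Uqcr11 (31.7 CPM, the lowest), HFCD+FMD 1 for Atp5d (109.7 CPM) and Cox6a1 (141.5 CPM), both the lowest, and HFCD+FMD 6 for Atp5mpl (57.4 CPM, the highest).

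The diet response differed between tissues by the interaction test of edgeR in 4 cases. The log2 fold change in heart minus that in adipose tissue was 0.69 for Uqcrc2 and 1.56 for Atp5l under HFCD against control. It was 0.65 for Uqcrc2 and 1.01 for Cox7a2l under HFCD+FMD against control.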

How the results depend on the processing

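All 22 members that fell in adipose tissue on the HFCD kept their direction in the 23 alternatives run, and 11 were called in every one (Uqcrc2, Uqcrh, Cox5b, Cox6b1, Cox6c, Cox7b, Cox8a, Atp5c1, Atp5h, Atp5j and Atp5md). The count ran from 11 to 26 with each library left out in turn, the lowest without control 1, and from 19 to 30 otherwise, where voom with quality weights also called 1 member higher (Cox6a2). For HFCD+FMD against HFCD it was 4 with DESeq2, 5 with quality weights and 0 in the others run. For HFCD+FMD against control it was 5 with voom or age as a covariate, 4 with only the 2 diets, and 1 to 13 with 1 library left out, where Cox6c alone was called throughout. In heart, HFCD+FMD against HFCD gave 2 members with the deposited log2 values (Atp5g1 and Atp5g3) and 1 without HFCD+FMD 1 (Atp5g1), with 0 to 1 over all libraries left out. The other heart diet comparisons gave 0 throughout. Of 38 members called between tissues, 37 passed in every alternative, all but Atp5md. The interaction counts were 6 (HFCD against control) and 4 (HFCD+FMD against control) with DESeq2, 1 and 0 with the heart sets as a term in the joint fit, and 0 to 12 and 0 to 9 with 1 library left out. Without length scaling the control shares were 98.2% for Atp5g3 in adipose tissue and, in heart, 95.8% for Cox6a2, 61.9% for Cox7a1, 83.0% for Cox8b and 97.9% for Atp5g3. The cause of these changes was not tested, apart from the length scaling itself. Apart from HFCD against control in adipose tissue without control 1, no share of all genes is given beside the counts of the alternatives. In adipose tissue 9 members stood below 5 CPM, where few reads limit the precision, and 5 of these (Cox7c, Atp5g1, Atp5g2, Atp5l and Atp5md) share over 40% of their words with another gene. No paired analysis was possible because the replicate numbers only name libraries within a diet.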
